A study of Mus musculus with 12 samples.

Results

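Angiotensinogen, the angiotensin receptor and the peptidases that make or break down angiotensin were followed in kidney proximal tubules isolated on Percoll from mice aged 20 weeks on a normal diet and water. The genes were a list of 9 (Agt, Ace, Agtr1a, Mme, Anpep, Enpep, Ren1, Atp6ap2 and Lnpep), of which 7 had a probe set that the array's annotation gives to that gene symbol alone. These 7 genes had 11 probe sets, of 18193 genes named on the array and 45037 probe sets other than array controls, and each gene is described by its probe set of highest mean over the 12 arrays. Ren1 (renin) and Lnpep (the oxytocin and angiotensin IV aminopeptidase) had no such probe set in the annotation and were not analysed here. RNA of 4 groups with 3 arrays each was compared: wild type, catalase-Tg (a catalase transgene and no dB/dB genotype), dB/dB, and dB/dB catalase-Tg (both). The dB/dB mouse has a defective leptin receptor and is a model of obesity with diabetes, and catalase is the enzyme that breaks down hydrogen peroxide. The labels name neither the strain, the sex, the leptin receptor allele nor the promoter of the transgene. From knowledge of these mice and not from the labels, the transgene is rat catalase under the promoter of Kap, an androgen-regulated gene of the proximal tubule. The labels do not say whether the 3 samples of a group came from separate animals, and p-values then reflect only the spread between samples, part of which may be technical.

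In the renin-angiotensin system, renin cuts angiotensin I from angiotensinogen, angiotensin-converting enzyme (Ace) trims it to angiotensin II, and angiotensin II acts on the type 1 receptor (Agtr1a) to raise sodium uptake and blood pressure. The proximal tubule makes its own angiotensinogen, and its brush border carries the peptidases that shorten angiotensins: neprilysin (Mme), aminopeptidase A (Enpep) and aminopeptidase N (Anpep). The (pro)renin receptor (Atp6ap2) binds renin and is also an accessory subunit of the proton pump of acidic vesicles.

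Values are log2 expression after GCRMA, so a difference of 1 is a doubling of signal, and 2.302 is the floor of the table. Probe sets above 4 (log2) on at least 3 arrays were tested with limma, which gave 18144 probe sets, among them all 11 of these genes. Between 36.9% and 38.5% of probe sets lay above 4 on an array, and the correlation within groups was r = 0.941 to 0.996. The phosphate transporter Slc34a1, a defining gene of the proximal tubule, read 12.84 to 14.07 on the 12 arrays, and the collecting duct water channel Aqp2 lay at the floor on all of them. Aqp2 does not stand for its segment, since of 8 listed collecting duct markers 7 were named on the array and 4 passed the filter. Umod, a defining gene of the thick ascending limb, read 12.49 to 14.83, so transcripts of later segments were abundant too. Array 1 stood apart from the other arrays of its group in 3 of the 4 groups. The limma array weight was 0.227 on wild type 1, 0.287 on catalase-Tg 1 and 0.172 on dB/dB catalase-Tg 1, against 0.629 to 3.03 on the rest, and they are called the 3 arrays of low weight here. Wild type 2 carried Xist, a transcript of female cells, at 11.91 and the Y-linked Eif2s3y at the floor (2.30), wild type 3 carried Xist at 6.72 and Eif2s3y at 7.89, and the other 10 arrays had Xist at 2.31 to 2.67 and Eif2s3y at 7.88 to 8.93. Wild type 2 therefore goes against the other arrays in sex-linked transcripts. Some differences from wild type of the genes named, but not all, are also given without wild type 2 and wild type 3. That fit has wild type 1 alone in its group, so the other groups supply the spread, the lone array is assumed to vary like them, and wild type 1 is itself an array of low weight.

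With limma and Benjamini-Hochberg adjustment over the 18144 probe sets, none of the 7 genes passed an adjusted p of 0.05 in any of the 7 contrasts, and few probe sets of the array did. In dB/dB against wild type 0 of 7 passed (0% of all probe sets) and 0 of 7 had an unadjusted p under 0.05 (4.16% of all). In catalase-Tg against wild type 0 of 7 passed (0.022% of all) and 3 of 7, Ace, Mme and Enpep, had an unadjusted p under 0.05 (9.15% of all). For the transgene in dB/dB mice (dB/dB catalase-Tg against dB/dB) 0 of 7 passed (0.00551% of all), with 0 at an unadjusted p under 0.05 (7.5% of all). For dB/dB in transgenic mice (dB/dB catalase-Tg against catalase-Tg) 0 of 7 passed (0.0276% of all), with 0 at an unadjusted p under 0.05 (6.86% of all). For the interaction of genotype and transgene 0 of 7 passed (0.00551% of all) and 1, Agt, had an unadjusted p under 0.05 (1.64% of all). For the transgene averaged over both genotypes 0 of 7 passed (0.0276% of all) and 4 of 7, Ace, Mme, Anpep and Enpep, had an unadjusted p under 0.05 (18.1% of all). For dB/dB averaged over both transgene states 0 of 7 passed (0.0165% of all), with 0 at an unadjusted p under 0.05 (12.2% of all). The median difference of the 7 genes in these contrasts, in the same order, was -0.24, -0.21, -0.01, -0.06, 0.09, -0.04 and -0.06 (log2), beside -0.11, -0.04, -0.02, -0.09, 0.02, -0.03 and -0.10 over all 9744 genes tested. Over all genes tested the median in dB/dB against wild type moved from -0.11 to -0.17 with centring of each array on its median and to -0.02 with quantile normalization. No gene of the 7 had groups that did not overlap in dB/dB against wild type, where 2.52% of all probe sets lay higher and 8.91% lower without overlap.

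**Figure D1:**
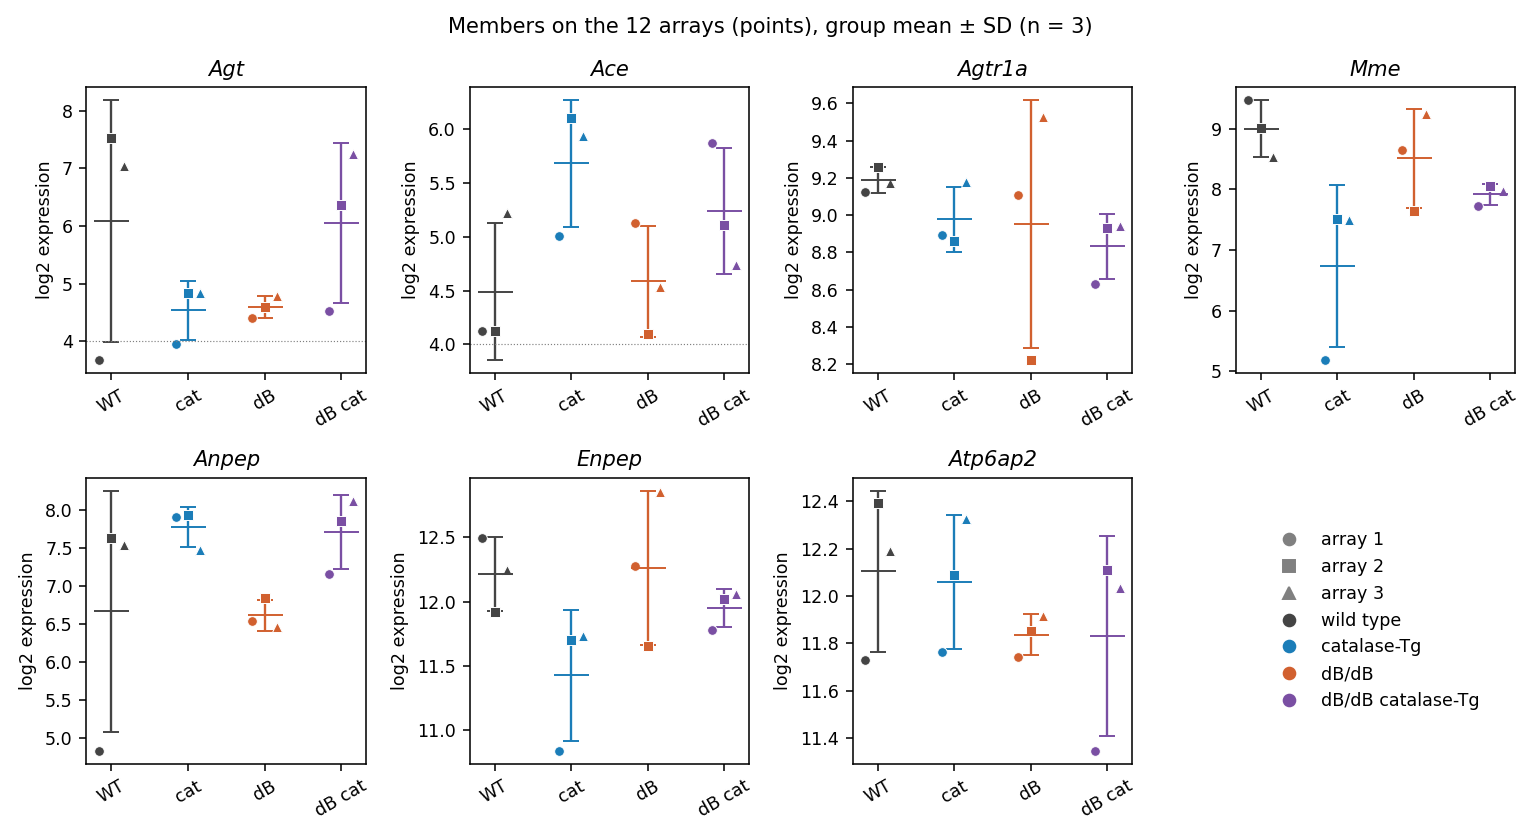
Log2 expression (vertical axis) of the 7 genes in the 4 groups (horizontal axis: WT wild type, cat catalase-Tg, dB dB/dB, dB cat dB/dB catalase-Tg). Points are arrays with the shape giving the array number, bars are the group mean ± SD (n = 3), and the dotted line at 4 is the filter; Agt lies at 6.36 to 7.53 on 4 arrays and at 4.84 or lower on the other 8.

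Angiotensinogen, the precursor of all angiotensins, had the largest SD within groups of the 7 genes, 1.29 pooled over the 4 groups. Agt read 3.68, 7.53 and 7.05 in wild type (arrays 1 to 3), beside 4.54, 6.36 and 7.25 in dB/dB catalase-Tg. In dB/dB it was 4.40, 4.60 and 4.78, and in catalase-Tg it was 3.95, 4.84 and 4.83. The 4 arrays above 6 were thus numbers 2 and 3 of wild type and of dB/dB catalase-Tg, array 1 of both groups lay within or below catalase-Tg and dB/dB, and the groups overlapped in every comparison. The window before the RefSeq start of Agt is printed because Agt is the gene on which the group comparisons turn, with the window of Anpep for contrast, since the 2 genes share the low value of wild type 1. Both are the 150 bases before the start in GRCm38.p6, read 5′ to 3′ on the gene's strand, the minus strand for both, at chr8:124569707-124569856 for Agt and chr7:79848211-79848360 for Anpep. Capitals mark the motifs searched on both strands.
Agt: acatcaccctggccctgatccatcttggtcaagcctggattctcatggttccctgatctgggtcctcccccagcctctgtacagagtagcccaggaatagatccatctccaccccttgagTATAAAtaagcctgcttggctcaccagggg
Anpep: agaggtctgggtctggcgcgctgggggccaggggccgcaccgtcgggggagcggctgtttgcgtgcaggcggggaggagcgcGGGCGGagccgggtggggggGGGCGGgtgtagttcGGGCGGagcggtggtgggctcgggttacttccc
The motifs were TATAAA (the core of a TATA box), TGTTCT (a steroid receptor half-site), GTTAAT (an HNF1 half-site) and GGGCGG (a GC box), held by 7.57%, 9.62%, 3.71% and 28.6% of the 32851 RefSeq windows of the same length. Agt had a single match, TATAAA with its first base 30 bases before the start. Anpep had GGGCGG at 68, 48 and 33 bases before its start and no TATAAA. A match is a description of the letters and says nothing of binding.

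Agt in wild type averaged 6.09 ± 2.10 (SD, n = 3), beside 4.59 ± 0.19 in dB/dB, 4.54 ± 0.51 in catalase-Tg and 6.05 ± 1.39 in dB/dB catalase-Tg. The SDs of wild type and dB/dB catalase-Tg were of the order of the distances between group means. dB/dB differed from wild type by -1.49 (SE 0.93, limma adjusted p = 0.767), with an unadjusted 95% interval of -3.56 to 0.57. The transgene differed in the opposite direction in the absence and presence of dB/dB, at -1.55 (SE 0.93, limma adjusted p = 0.626) in catalase-Tg against wild type and 1.46 (SE 0.93, limma adjusted p = 0.642) in dB/dB catalase-Tg against dB/dB. The difference of dB/dB in transgenic mice was 1.51 (SE 0.93, limma adjusted p = 0.776). The test of that opposition, the interaction, gave 3.00 (SE 1.32, unadjusted p = 0.0449, limma adjusted p = 1.00), so the opposite directions did not pass either. With the transgene averaged over both genotypes the difference was -0.04 (SE 0.66).

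The Agt differences rested on which arrays stood for a group. Without the 3 arrays of low weight, Agt passed the threshold for dB/dB without the transgene (-2.70, adjusted p = 0.00172) and for the transgene in the absence of dB/dB (-2.45, adjusted p = 0.0368). It also passed there for the transgene in dB/dB mice (2.22, adjusted p = 0.0027) and in the interaction (4.67, adjusted p = 0.0309). In that fit 4875, 31, 5043 and 143 probe sets passed in these contrasts, and wild type holds only the arrays that carry Xist. Without wild type 2 and wild type 3 the first difference turned to 0.91, the second to 0.86, and the interaction fell to 0.60. With a score of endothelial, podocyte and mural markers as a covariate, the transgene difference was -0.05 (SE 0.63, adjusted p = 1.00) in dB/dB mice and -3.01 (SE 0.62, adjusted p = 0.402) in the absence of dB/dB. With it the difference of dB/dB in transgenic mice was 2.47 (SE 0.57, adjusted p = 0.352), dB/dB against wild type was -0.48 (SE 0.58, adjusted p = 1.00), and the interaction was 2.96 (SE 0.76, adjusted p = 1.00). Beside these stand the sums of proximal tubule genes. Their score, the mean difference of 16 of 16 listed genes from their mean over the 12 arrays, was -2.11, 0.36 and 0.57 in wild type, -0.58, -0.78 and -0.41 in dB/dB, -0.27, 1.01 and 1.01 in catalase-Tg and -0.51, 0.97 and 0.76 in dB/dB catalase-Tg. Agt and this score correlated at r = 0.63 (rho = 0.67) over the 12 arrays, which share their groups, and at r = 0.66 without the 2 arrays farthest from its median. Catalase-Tg 2 and 3 had the highest scores and Agt at 4.84 and 4.83. In the plot of Agt under each setting, filled points stand only in the fits with array weights or without the arrays numbered 1.

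**Figure D2:**
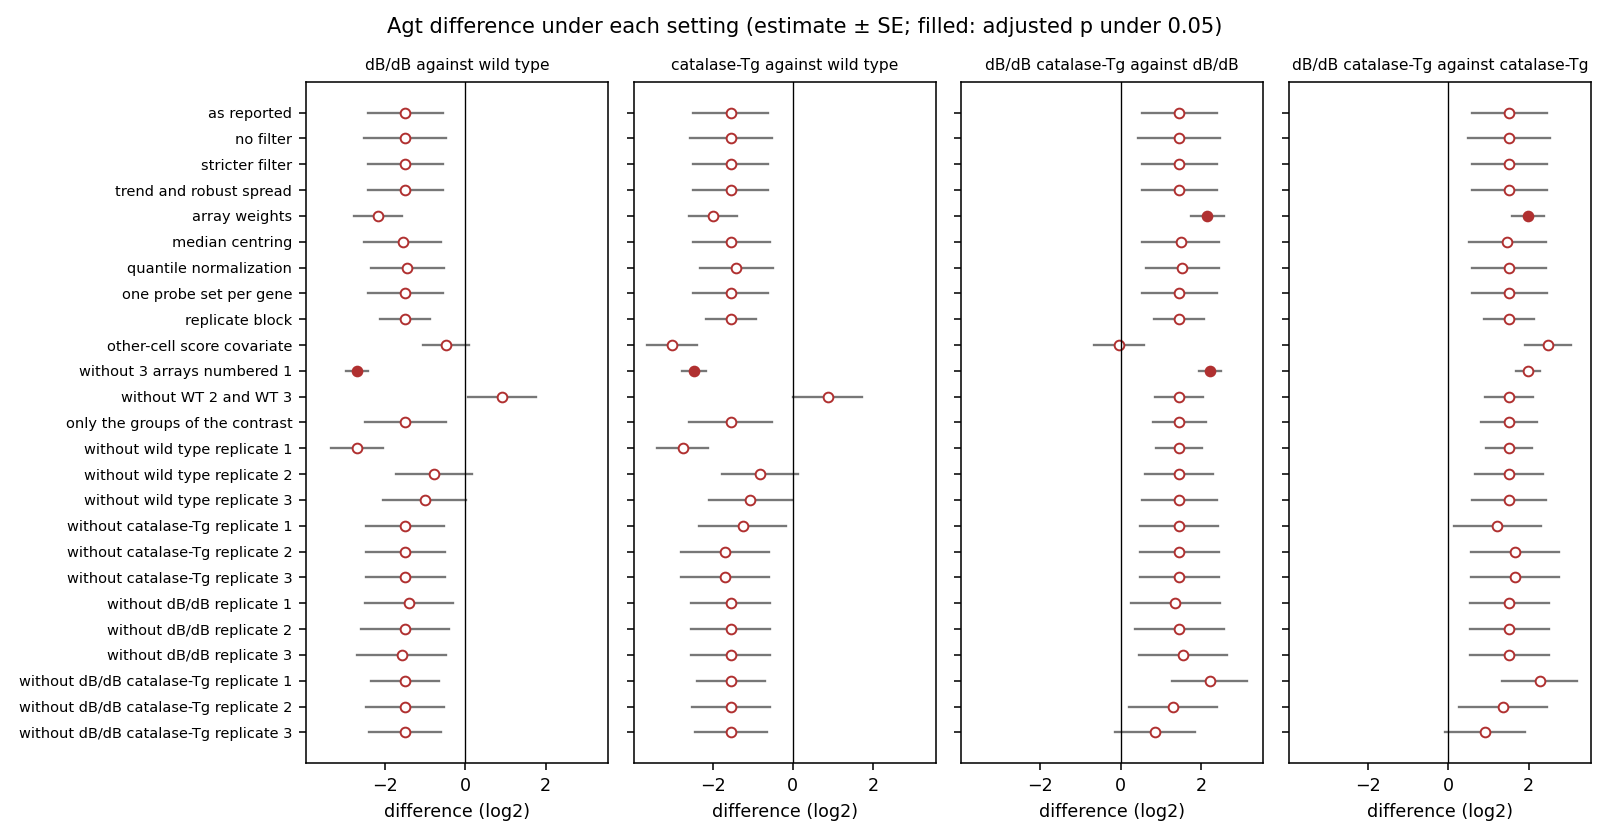
Difference of Agt (horizontal axis, log2; estimate ± SE) in the 4 pairwise comparisons under the reported fit and each alternative (vertical axis), filled where the adjusted p was under 0.05. Without wild type 2 and wild type 3 both comparisons with wild type change sign, to 0.91 and 0.86.

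The 5 genes most like Agt over the 12 arrays, by Pearson correlation among the 9743 other genes tested, were Slc39a11 (a zinc transporter, r = 0.91, rho = 0.73), Pcid2 (a subunit of an mRNA export complex, r = 0.90, rho = 0.90), Itgb8 (an integrin subunit, r = 0.87, rho = 0.92), Irf8 (a transcription factor of myeloid cells, r = 0.86, rho = 0.83) and Eps8 (an actin regulator of microvilli, r = 0.86, rho = 0.90). Itgb8 was high on the same 4 arrays as Agt, but its catalase-Tg arrays 2 and 3 also lay above wild type 3. It read 8.56, 11.23 and 10.26 in wild type and 8.64, 11.22 and 11.52 in dB/dB catalase-Tg, beside 8.81, 10.31 and 10.37 in catalase-Tg and 8.87 to 9.43 in dB/dB. These correlations are over arrays that share group, preparation and signal level, and no p is attached.

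The (pro)renin receptor was high in all groups. Atp6ap2 on its brightest probe set read 11.73, 12.39 and 12.19 in wild type, 11.74, 11.85 and 11.92 in dB/dB, 11.76, 12.09 and 12.33 in catalase-Tg and 11.35, 12.11 and 12.04 in dB/dB catalase-Tg. Array 1 was the lowest of its group in all 4 groups, and all groups overlapped. The 4 pairwise differences ran from -0.27 (SE 0.26, limma adjusted p = 0.769, dB/dB against wild type) to -0.01 (SE 0.26, dB/dB catalase-Tg against dB/dB). The unadjusted 95% intervals, -0.83 to 0.30 and -0.57 to 0.56, leave room for either direction. Without wild type 2 and wild type 3 dB/dB against wild type was 0.11 (adjusted p = 1.00) and catalase-Tg against wild type 0.33 (adjusted p = 0.623), both turned in sign. The other 2 probe sets of the gene gave -0.30 and -0.13 in dB/dB against wild type, and the 3 correlated pairwise at r = 0.85 to 0.96.

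The angiotensin-converting enzyme lay near the filter, at 4.12, 4.12 and 5.22 in wild type, 5.13, 4.09 and 4.54 in dB/dB, 5.01, 6.10 and 5.93 in catalase-Tg and 5.88, 5.11 and 4.74 in dB/dB catalase-Tg. Catalase-Tg 2 and 3 were the highest of the 12 arrays, but catalase-Tg 1 lay below wild type 3. The difference of catalase-Tg against wild type was 1.19 (SE 0.44, unadjusted p = 0.0207, limma adjusted p = 0.532), and dB/dB catalase-Tg against dB/dB gave 0.65 (SE 0.44, limma adjusted p = 0.645). The first was 1.56 (adjusted p = 0.124) without wild type 2 and wild type 3. Averaged over both genotypes the transgene difference was 0.92 (SE 0.31, limma adjusted p = 0.201), and all 6 transgenic arrays lay above the mean of the 6 others. The second Ace probe set was at 3.29 to 4.05 on 10 arrays and at 5.86 and 5.67 on catalase-Tg 2 and 3. It gave 0.03 (SE 0.52) for the transgene in dB/dB mice, where the brighter one gave 0.65. The score of 8 androgen-responsive and male-enriched tubule genes was high on some of the arrays high in Ace, at 2.72 and 2.81 on catalase-Tg 2 and 3 and 2.44 on wild type 3, and low on others, at -1.17 on dB/dB catalase-Tg 1 (the third highest in Ace), -1.09 on dB/dB 1 and -0.93 on catalase-Tg 1. Wild type 1 and 2, both at 4.12 in Ace, had scores of -2.64 and -1.43. Over the 12 arrays the score correlated with Ace at r = 0.70 (rho = 0.75), and at r = 0.45 without the 2 arrays farthest from its median. With the second probe set these were r = 0.76 (rho = 0.62) and r = 0.51. The part of these tubule genes in the Ace differences was not tested.

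The type 1 angiotensin receptor was the steadiest of these genes in wild type. Agtr1a read 9.12, 9.26 and 9.17 in wild type, 9.11, 8.22 and 9.53 in dB/dB, 8.90, 8.86 and 9.18 in catalase-Tg and 8.63, 8.93 and 8.94 in dB/dB catalase-Tg. dB/dB held both the lowest and the highest of the 12 arrays, with an SD of 0.67 against 0.07 in wild type. All 4 pairwise differences were below 0, from -0.24 (SE 0.29, limma adjusted p = 0.793) in dB/dB against wild type to -0.12 (SE 0.29, limma adjusted p = 0.896) in dB/dB catalase-Tg against dB/dB. The unadjusted 95% interval of the first was -0.87 to 0.40, and without wild type 2 and wild type 3 it was -0.17 (adjusted p = 1.00). The other angiotensin receptors Agtr1b, Agtr2 and Mas1 lay at 2.30 to 2.64 on all 12 arrays and were not tested.

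**Figure D3:**
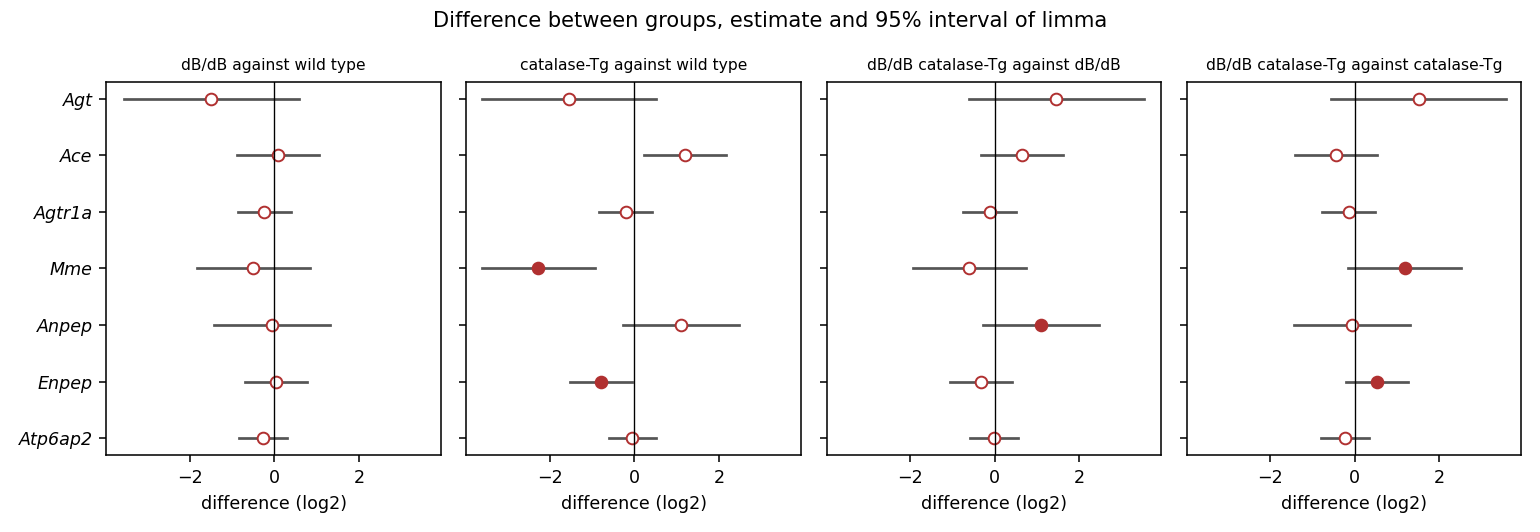
Difference between groups (horizontal axis, log2) of the 7 genes (vertical axis) in the 4 pairwise comparisons, with unadjusted 95% intervals from limma; filled points are genes whose groups do not overlap. Mme in catalase-Tg against wild type is the largest difference, at -2.28.

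Neprilysin and aminopeptidase A were lowest in catalase-Tg. Mme, which cuts angiotensin I and many other peptides, read 9.47, 9.01 and 8.53 in wild type, 8.65, 7.64 and 9.25 in dB/dB, 5.18, 7.52 and 7.49 in catalase-Tg and 7.73, 8.06 and 7.97 in dB/dB catalase-Tg. All 3 catalase-Tg arrays lay below every array of the other groups on this brightest probe set, though not on the second, and catalase-Tg 1 was far below the other 2. The difference from wild type was -2.28 (SE 0.60, unadjusted p = 0.0034, limma adjusted p = 0.43), a fold of 4.84 lower, and it did not pass. The second Mme probe set gave -2.04 (SE 0.61, unadjusted p = 0.00729, limma adjusted p = 0.483), again with no overlap, and correlated with the first at r = 0.95. Without catalase-Tg 1 the difference was -1.50 (adjusted p = 0.525), and without wild type 2 and wild type 3 it was -2.74 (adjusted p = 0.0877). In dB/dB mice the transgene difference was -0.59 (SE 0.60, limma adjusted p = 0.73), with the groups overlapping, and the test of the difference between these 2 transgene effects gave 1.68 (SE 0.85, unadjusted p = 0.0754, limma adjusted p = 1.00). dB/dB catalase-Tg lay above catalase-Tg by 1.19 (SE 0.60, limma adjusted p = 0.745), with no overlap. Without catalase-Tg 1 this fell to 0.42 (adjusted p = 0.724) and the test of the 2 transgene effects to 0.91 (adjusted p = 1.00). On the second probe set dB/dB catalase-Tg lay above catalase-Tg by 1.02 (SE 0.61, limma adjusted p = 0.771), and there the groups overlapped.

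Enpep, which removes the first residue of angiotensin II, followed Mme over the arrays (r = 0.92, rho = 0.89). It read 12.49, 11.92 and 12.24 in wild type, 12.28, 11.65 and 12.85 in dB/dB, 10.84, 11.70 and 11.73 in catalase-Tg and 11.78, 12.02 and 12.06 in dB/dB catalase-Tg. Catalase-Tg again lay below wild type and below dB/dB catalase-Tg without overlap. The difference from wild type was -0.79 (SE 0.33, unadjusted p = 0.0365, limma adjusted p = 0.534), and -0.36 (adjusted p = 0.798) without the 3 arrays of low weight and -1.07 (adjusted p = 0.205) without wild type 2 and wild type 3. In dB/dB mice the transgene difference was -0.31 (SE 0.33, limma adjusted p = 0.743). Among the 7 genes, 2 (Mme and Enpep) lay lower in catalase-Tg than in wild type with no overlap, where 7.8% of all probe sets did (0 of 7 lay higher, beside 5.74%). The same 2, each on its brightest probe set, lay higher in dB/dB catalase-Tg than in catalase-Tg with no overlap, where 6.67% of all did (0 of 7 lay lower, beside 9.35%). Both comparisons share the catalase-Tg arrays.

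The windows before the starts of Mme and Enpep, the pair that moved together, are printed for comparison. They are the 150 bases before the start in GRCm38.p6, at chr3:63295061-63295210 on the plus strand for the most upstream of 3 RefSeq starts of Mme and at chr3:129332750-129332899 on the minus strand for Enpep, with the same motifs in capitals.
Mme: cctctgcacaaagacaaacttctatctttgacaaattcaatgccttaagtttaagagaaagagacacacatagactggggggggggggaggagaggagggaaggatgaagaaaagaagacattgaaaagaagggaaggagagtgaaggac
Enpep: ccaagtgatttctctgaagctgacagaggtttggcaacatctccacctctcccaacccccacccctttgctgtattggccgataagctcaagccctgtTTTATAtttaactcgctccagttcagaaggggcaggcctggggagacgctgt
Enpep held TTTATA, the reverse complement of TATAAA, with its first base 52 bases before the start, and this Mme window held none of the 4 motifs. The other 2 Mme starts held GGGCGG or its reverse complement, CCGCCC. The windows of Mme and Enpep therefore shared none of these letters.

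Podocytes also carry Mme and Enpep at their surface, so markers of podocytes were set beside them. The score of 7 podocyte markers (7 of 9 listed were named on the array) was 2.48, -2.03 and 1.87 in wild type, 1.92, 0.55 and 2.71 in dB/dB, -2.34, -1.48 and -1.74 in catalase-Tg and 0.84, -0.99 and -1.78 in dB/dB catalase-Tg. Over the 12 arrays it correlated with Enpep at r = 0.74 (rho = 0.72) and with Mme at r = 0.63 (rho = 0.64), falling to 0.55 and 0.44 without the 2 arrays farthest from its median. Wild type 2 had a podocyte score of -2.03, and Mme at 9.01. With the endothelial, podocyte and mural score as a covariate, Mme in catalase-Tg against wild type was -2.31 (SE 0.71, adjusted p = 0.528) and Enpep was -0.68 (SE 0.38, adjusted p = 0.66). The score of 9 loop and distal tubule markers, lowest in catalase-Tg as well (-2.10, -1.31 and -1.43), correlated with Mme at r = 0.63 (rho = 0.62) and with Enpep at r = 0.71 (rho = 0.66). The part of these cell types in the Mme and Enpep differences was not tested. In tissue preparations such as these, fewer cells of a type and less RNA per cell cannot be told apart.

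**Figure D4:**
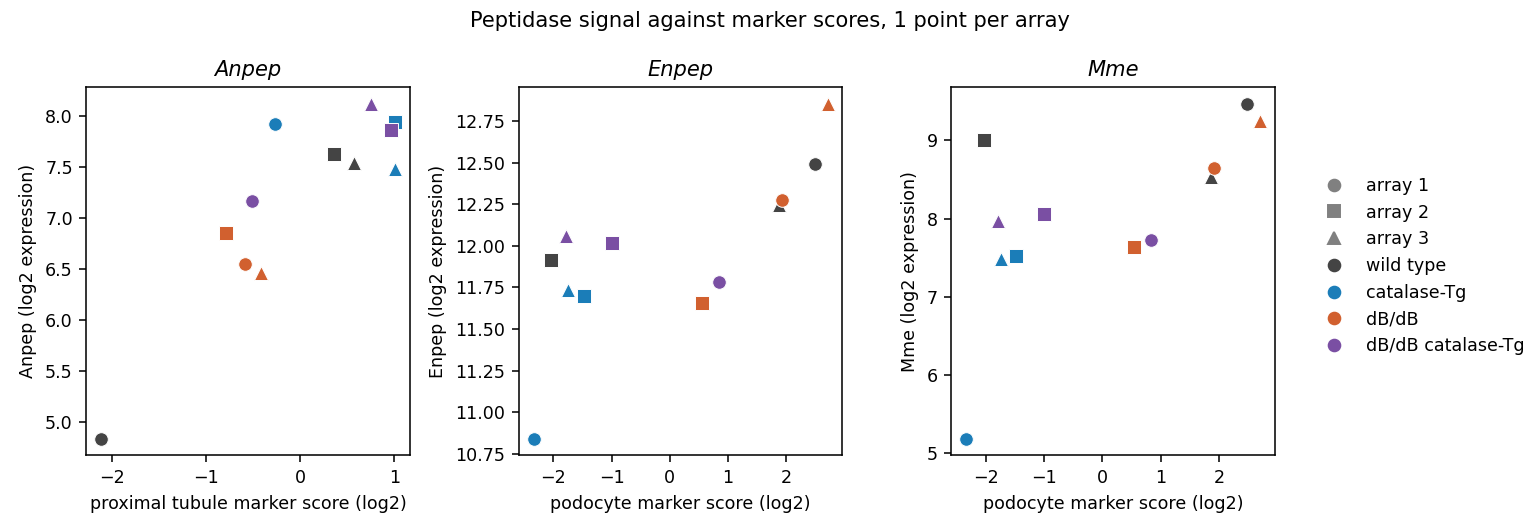
Log2 expression of Anpep against the proximal tubule marker score, and of Enpep and Mme against the podocyte marker score (both scores in log2), 1 point per array with colour for group and shape for array number. Anpep is lowest on wild type 1, the array with the lowest proximal tubule score, and wild type 2 lies apart in Mme at 9.01 with a podocyte score of -2.03.

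Of 11 further peptidases of the brush border and tubule that were tested, 7 lay above 0 and 4 below in catalase-Tg against wild type. Their score correlated with Mme at r = -0.07 (rho = -0.22). Dpp4, 1 of these and outside the list of 9, correlated with Mme at r = 0.80 (rho = 0.80). It read 9.53, 9.66 and 9.83 in wild type, 9.36, 8.71 and 10.09 in dB/dB, 8.37, 8.66 and 8.71 in catalase-Tg and 8.72, 8.58 and 8.77 in dB/dB catalase-Tg. The last 2 groups overlapped in Dpp4, while in Mme on its brightest probe set they did not. The difference of catalase-Tg against wild type was -1.09 (SE 0.29, unadjusted p = 0.00376, limma adjusted p = 0.44), and -0.95 (adjusted p = 0.221) without wild type 2 and wild type 3. The 5 genes most like Mme by Pearson correlation were Hipk3 (a protein kinase, r = 0.96, rho = 0.92), BC064078 (r = 0.96, rho = 0.96), Fabp5 (a fatty acid binding protein, r = 0.94, rho = 0.88), Pja2 (a ubiquitin ligase, r = 0.94, rho = 0.92) and Lsm14b (an RNA-binding protein, r = 0.94, rho = 0.90). Catalase-Tg 1 was the lowest of the 12 arrays for all 5 genes, as it was for Mme. Since the 5 were picked for likeness to Mme over these arrays, this is no separate observation.

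Aminopeptidase N, which trims angiotensin III and other peptides on the same brush border, correlated negatively with Mme (r = -0.57, rho = -0.55) and Enpep (r = -0.56, rho = -0.50). Anpep read 4.84, 7.63 and 7.54 in wild type, 6.55, 6.85 and 6.46 in dB/dB, 7.92, 7.94 and 7.48 in catalase-Tg and 7.17, 7.86 and 8.12 in dB/dB catalase-Tg. The dB/dB arrays were the lowest after wild type 1, and all 3 dB/dB catalase-Tg arrays lay above them. That transgene difference in dB/dB mice was 1.09 (SE 0.62, limma adjusted p = 0.636). Anpep was the 1 gene of the 7 that lay higher there with no overlap, where 4.87% of all probe sets did, and 0 of 7 lay lower, beside 11.1%. In catalase-Tg against wild type the difference was of the same size, 1.11 (SE 0.62, limma adjusted p = 0.606), and the groups overlapped. Without wild type 1 it was 0.19 (adjusted p = 1.00), and with wild type 1 as the only wild type array it was 2.94. The average transgene effect was 1.10 (SE 0.44, unadjusted p = 0.0302, limma adjusted p = 0.239), with all 6 transgenic arrays above the mean of the others, and was 0.64 (adjusted p = 0.242) without wild type 1. It passed with array weights (0.96, adjusted p = 0.0176), where 26.4% of all probe sets passed. It also passed without the 3 arrays of low weight (0.74, adjusted p = 0.0145), where 20.5% of all did. With wild type 1, the array lowest in Anpep, as a group of 1 it was 2.01, and there the spread comes from the other groups alone. The highest adjusted p of its alternatives was 0.868, the value with the other-cell score as a covariate (0.27, SE 0.42). dB/dB against wild type gave -0.05 (SE 0.62) with 12 arrays. Without the 3 arrays of low weight this difference was -0.96 (adjusted p = 0.012), in a fit where 26.9% of all probe sets passed. Without wild type 2 and wild type 3 it was 1.78, in the opposite direction.

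Proximal tubule markers moved with Anpep. The correlation with the proximal tubule score was r = 0.88 (rho = 0.73) over the 12 arrays and 0.79 without the 2 arrays farthest from the median of the score. Hnf4a, a transcription factor that defines the proximal tubule, correlated with Anpep at r = 0.93 (rho = 0.83) and read 9.14 on wild type 1 against 11.64 and 11.38 on wild type 2 and 3. The endothelial score correlated at r = -0.73. These points share libraries and groups, and the part of these markers in the Anpep differences was not tested.

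The rest of the angiotensin pathway was followed through 16 genes, of which 14 were named on the array and 8 tested, with 0 passing in any of the 4 pairwise comparisons (limma, adjusted p). The 8 include Klk1, tissue kallikrein, whose values are given with the kinin genes at the end. Klk1 held the lowest difference of the 8 in catalase-Tg against wild type (-2.30). In dB/dB catalase-Tg against catalase-Tg it held the highest (3.20). At an unadjusted p under 0.05 there were 0 in dB/dB against wild type (4.16% of all probe sets), 4 in catalase-Tg against wild type (9.15%), 0 for the transgene in dB/dB mice (7.5%) and 2 for dB/dB in transgenic mice (6.86%). The medians of the 8 were -0.30, 0.36, 0.31 and -0.13 in that order. Agtrap, which binds the type 1 receptor and promotes its internalization, read 7.05, 7.44 and 7.24 in wild type and 8.47, 8.14 and 8.43 in catalase-Tg, a difference of 1.10 (SE 0.27, unadjusted p = 0.00224, limma adjusted p = 0.391) with no overlap. It read 7.01 to 7.07 in dB/dB and 6.60, 7.80 and 7.47 in dB/dB catalase-Tg. The interaction gave -0.85 (SE 0.39, unadjusted p = 0.0524, limma adjusted p = 1.00). Without wild type 2 and wild type 3 these were 1.29 (adjusted p = 0.0793) and -1.04 (adjusted p = 0.63). Renbp, which binds renin, was higher in catalase-Tg than in wild type by 1.32 (SE 0.54, limma adjusted p = 0.534) and in dB/dB catalase-Tg than in dB/dB by 1.08 (SE 0.54, limma adjusted p = 0.636), in both with no overlap. Ctsa, a carboxypeptidase of lysosomes that acts on angiotensin I, differed by 0.68 (SE 0.25, limma adjusted p = 0.532) in catalase-Tg against wild type. With wild type 1 as the only wild type array the differences of that comparison were 2.88 for Renbp and 1.32 for Ctsa. Prcp, which removes the last residue of angiotensin II, spanned 5.12 to 7.02 over the wild type arrays, and over those of catalase-Tg 6.15 to 7.39. Agtr1b, Agtr2, Mas1, Ctsg, Cma1 (chymase) and Thop1 did not pass the filter.

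Among 13 further peptidases of the brush border and tubule, 12 were named and 11 tested, again with 0 passing in the 4 comparisons. Unadjusted p under 0.05 was reached by 0, 3, 1 and 0 of them in the same order (4.16%, 9.15%, 7.5% and 6.86% of all probe sets), and the medians were -0.30, 0.25, 0.44 and -0.24. In dB/dB against wild type 10 of 11 lay below 0, beside 6058 of 9744 genes tested. In dB/dB catalase-Tg against dB/dB 9 of 11 lay above 0, beside 4616 of 9744. Mep1a, a subunit of the metallopeptidase meprin, spanned 6.20 to 12.01 within wild type alone, and read 8.87 to 9.83 in dB/dB and 9.41, 11.94 and 11.61 in dB/dB catalase-Tg. Its partner Mep1b lay at 2.30, 2.90 and 6.15 in wild type and 2.32, 8.05 and 7.72 in catalase-Tg. Lap3, a leucine aminopeptidase, differed by 1.15 (SE 0.56, limma adjusted p = 0.636) in dB/dB catalase-Tg against dB/dB with no overlap. Rnpep, aminopeptidase B, lay lower in catalase-Tg than in wild type by -0.55 (SE 0.20, limma adjusted p = 0.532), also with no overlap. Cpm, a carboxypeptidase, differed there by -2.21 (SE 0.98, limma adjusted p = 0.542) and ranged from 3.24 to 8.01 within wild type. With wild type 1 as the only array of its group Rnpep differed by -0.44 and Cpm by -4.37.

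Of 11 factors known to act on the Agt gene or its transcript, 8 were named and tested, and 0 passed in the 4 comparisons (limma, adjusted p). Unadjusted p under 0.05 was reached by 0, 1, 0 and 1 of them (4.16%, 9.15%, 7.5% and 6.86% of all probe sets), and the medians were -0.04, -0.22, -0.11 and 0.03. Nfe2l2, the oxidant-responsive factor NRF2, read 9.78, 8.93 and 8.70 in wild type, 9.52 to 9.63 in dB/dB, 8.51, 8.23 and 8.39 in catalase-Tg and 8.96 to 9.40 in dB/dB catalase-Tg. It lay lower in catalase-Tg than in wild type by -0.76 (SE 0.26, limma adjusted p = 0.523) and higher in dB/dB catalase-Tg than in catalase-Tg by 0.83 (SE 0.26, limma adjusted p = 0.659), both with no overlap. The first was -1.40 with wild type 1 as the only wild type array. Hnrnpf and Hnrnpk, RNA-binding proteins that repress Agt transcription, read 9.80 to 10.97 and 11.70 to 12.59 on the 12 arrays. Rela, a subunit of NF-kappaB, differed by -0.51 (SE 0.24, limma adjusted p = 0.636) in dB/dB catalase-Tg against dB/dB. Nr3c1, the glucocorticoid receptor, gave an average dB/dB difference of -0.70 (SE 0.31, limma adjusted p = 0.406), and -0.33 (adjusted p = 1.00) without wild type 2 and wild type 3.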

How the data were processed

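RNA of 12 samples in 4 label groups of 3 was hybridized to Affymetrix mouse arrays. Per the submitters' processing notes, the authors used GCRMA and limma, and the table they deposited gives log2 expression. Versions, builds and the authors' order of steps are not given in the sources used here. GCRMA subtracts background by probe sequence, which sets many dim probe sets to 2.302. No further normalization was applied. Precision was limited by 3 arrays a group and also depended on which arrays were in the fit. The SE of Agt in dB/dB against wild type was 0.93 with 12 arrays and 0.28 without the 3 arrays of low weight.

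The table has 45101 probe sets, less 64 for array controls. In GEO's annotation 34945 of the rest had 1 gene symbol, 932 several and 9160 none, and genes were named only from the first kind. Probe sets above 4 (log2) on at least 3 arrays, 18144 in all, were fitted with limma 3.58.1 in R 4.3.3, 1 mean per group over 12 arrays, with default empirical Bayes settings, Benjamini-Hochberg adjustment and a threshold of 0.05. SE is that of the moderated test. The fit was tested on simulated data made from the 18144 probe sets, and in the simulated dB/dB and wild type comparison it recovered 24% of 2-fold and 70% of 4-fold changes. The simulated noise was independent between probe sets, had the same spread in every group and held no arrays that stood apart. The real arrays differ in this, so these shares do not give the recovery in the real comparison.

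The members and gene lists were chosen with earlier results of these data known. Genes named are the members, up to 4 of each list with the smallest p over the pairwise comparisons, and the 5 genes most like Agt and Mme. Mep1a, Mep1b, Prcp, Hnrnpf, Hnrnpk, the receptors and the genes below the filter were named after their values were seen. Alternatives were the filter, spread estimate, array weights, normalization, probe set, samples in the fit, replicate number as a block, an other-cell score from 29 genes and arrays left out. Promoter windows are from RefSeq (GRCm38.p6), with 8 of 9 members matched.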

Additional observations from a re-analysis of the deposited data

How the results depend on the processing

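The count of these genes past the threshold was 0 in all 7 contrasts as reported, and 0 with no filter, the stricter filter, the other spread estimate, both normalizations, 1 probe set per gene, only the groups of the contrast, the other-cell score and any 1 array left out (0 to 0 in each contrast). It rose with array weights to 2 in dB/dB catalase-Tg against dB/dB (Agt and Anpep), where 38.5% of all probe sets passed. With them it was 2 in dB/dB catalase-Tg against catalase-Tg (Agt and Ace), beside 4.87% of all. In the average transgene effect it was then 3 (Ace, Mme and Anpep), beside 26.4% of all. Without the 3 arrays of low weight (number 1 of every group but dB/dB) it was 2 in dB/dB against wild type, beside 26.9% of all. It was also 2 in dB/dB catalase-Tg against dB/dB, beside 27.8% (Agt and Anpep in both). In that fit it was 1 in catalase-Tg against wild type (Agt, beside 0.171%) and 1 in the interaction (Agt, beside 0.788%). It was 1 in the average transgene effect (Anpep, beside 20.5%). Without wild type 2 and wild type 3 it was 1 in catalase-Tg against wild type and 1 in the average transgene effect (Anpep), with wild type 1 as a group of 1, assumed to vary like the other groups. The array weights follow each array's own distance from its group, and over all probe sets 6989 passed with them for the transgene in dB/dB mice (1 as reported), 883 for dB/dB in transgenic mice (5), 4785 for the average transgene effect (5) and 1975 for the average dB/dB effect (3). Without the 3 arrays of low weight the counts over all probe sets were 4875 (0 as reported), 31 (4), 5043 (1), 23 (5), 143 (1), 3711 (5) and 3515 (3) in the 7 contrasts, in the order of the text. Leaving out wild type 2 and wild type 3 gave 2180 for the transgene without dB/dB, 174 for dB/dB in transgenic mice and 3375 for the average transgene effect. Leaving out wild type 1 gave 107 for dB/dB without the transgene, 22 in transgenic mice and 1246 for the average dB/dB effect, and leaving out wild type 2 gave 270 for the transgene without dB/dB and 969 for its average. Any other single array left out moved these counts within 0 to 8. With no filter the 4 pairwise counts were 6, 14, 3 and 7. Wherever fewer arrays or weights changed a count, the cause was not tested.

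Directions turned without wild type 2 and wild type 3 for Agt in dB/dB against wild type (0.91), in catalase-Tg against wild type (0.86), for Atp6ap2 in dB/dB against wild type (0.11), and with the other-cell score as a covariate for Agt in dB/dB catalase-Tg against dB/dB (-0.050). A further 93 values of single genes changed sign where the reported difference was under 1 SE, and 1063 of the alternatives of single genes kept direction and side of the threshold.

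With the replicate number as a block, 0 of the 7 genes passed in each contrast, Agt in dB/dB against wild type was -1.49 (SE 0.63, limma adjusted p = 0.571), and over all probe sets the interaction went from 1 call to 0 and the average dB/dB effect from 3 to 1. Same-numbered arrays had deviations from their group means that correlated at -0.18 to 0.71 over the 18 pairs, 13 of them over 0.1, so the numbers do not pair the samples throughout and the block changed no call among these genes.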

Other observations

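The kallikrein-kinin system, which opposes angiotensin and whose peptides Ace and Mme also degrade, was followed beside the angiotensin genes. Its enzyme Klk1 was counted above in the list of other angiotensin pathway genes. Klk1, tissue kallikrein, a product of the distal nephron, read 15.12, 11.70 and 13.64 in wild type, 10.96, 11.40 and 11.22 in catalase-Tg, 15.03, 14.34 and 14.95 in dB/dB and 14.73, 14.28 and 14.17 in dB/dB catalase-Tg. It lay higher in dB/dB catalase-Tg than in catalase-Tg by 3.20 (SE 0.66, unadjusted p = 0.000571, limma adjusted p = 0.418), without overlap. Kng1, the kininogen from which kinins are cut, gave 2.55 (SE 0.83, limma adjusted p = 0.677) in that comparison, also without overlap, and read 8.98 to 9.76 in catalase-Tg against 11.57 to 12.77 in dB/dB catalase-Tg. For the transgene in dB/dB mice Klk1 differed by -0.38 (SE 0.66) and Kng1 by -1.17 (SE 0.83). In catalase-Tg against wild type Klk1 differed by -2.30 (SE 0.66, limma adjusted p = 0.441) and Kng1 by -2.19 (SE 0.83, limma adjusted p = 0.532). With all 12 arrays neither gene passed in any of the 7 contrasts. With wild type 1 as the only wild type array the differences of catalase-Tg against wild type were larger, at -3.93 for Klk1 and -4.12 for Kng1. The differences of dB/dB against wild type, 1.29 for Klk1 and 1.53 for Kng1 with 12 arrays, turned there to -0.34 and -0.40. Klk1 has near-identical paralogs that its probe set may also read, so its values are uncertain in identity.

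Markers of the loop of Henle and distal tubule moved with both genes. The score of 9 of 9 such markers was 1.45, -1.51 and 0.44 in wild type, -2.10, -1.31 and -1.43 in catalase-Tg, 1.36, 0.87 and 1.03 in dB/dB and 0.86, 0.24 and 0.11 in dB/dB catalase-Tg. Their part in the Klk1 and Kng1 differences was not tested. The kinin receptors Bdkrb1 and Bdkrb2 lay near the floor on all arrays. The endothelin-converting enzymes Ece1 and Ece2, which also cut bradykinin, read 7.42 to 8.76 and 4.24 to 5.62 on the 12 arrays. Ece2 differed by 0.59 (SE 0.27, limma adjusted p = 0.636) in dB/dB catalase-Tg against dB/dB with no overlap.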
